A study of Homo sapiens with 18 samples.

Results

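The 45 genes examined here act in homologous recombination, in the Fanconi anemia pathway or in DNA end joining by polymerase theta. They are given by name in a list that uses no measured value as a criterion but was drawn up with earlier results of these data known, and they are 45 of the 58884 genes in the count tables. Their transcript levels were followed in T47D cells, a luminal, estrogen receptor-positive human breast cancer line, after 48 hours with niraparib, olaparib or the vehicle DMSO. Both drugs inhibit PARP enzymes, which bind and signal DNA breaks, and both were given at 10 μmol/L. Polyadenylated RNA was sequenced from 18 libraries, 3 for each drug or vehicle in cells with the genotype WT (line name T47D AAV) and 3 for each in cells with the genotype PARP1 KO (line name T47D JL). The 6 groups were therefore WT DMSO, WT niraparib, WT olaparib, PARP1 KO DMSO, PARP1 KO niraparib and PARP1 KO olaparib. Each genotype is represented by 1 line, so a difference between genotypes cannot be told apart from any other difference between these lines, and how the knockout was made is not given in the sources used here.

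Homologous recombination repairs a double-strand break, or a broken replication fork, by copying the sister chromatid. The broken end is first trimmed to a single strand by nucleases, BRCA1 and BRCA2 with their partners then load a recombinase on that strand, and helicases and nucleases finally take the joined molecules apart. The Fanconi anemia proteins detect cross-links between the DNA strands at stalled forks and hand the broken fork to the same machinery, while polymerase theta joins trimmed ends through short matching stretches and is best known as the backup of cells without BRCA function. Cells that lack BRCA1 or BRCA2 are known for their sensitivity to PARP inhibitors, and many of these genes are known to be transcribed mainly in S phase.

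The deposited values were raw read counts, with 28890837 to 52251288 counts per library. PARP1 itself was at 291 to 373 CPM, counts scaled to the size of the library, in the WT libraries and at 22.9 to 27.6 CPM in the PARP1 KO libraries, and the highest PARP1 KO library lay far below the lowest WT library. The luminal markers ESR1, PGR, GATA3, FOXA1, KRT8, KRT18 and KRT19 were all detected; their summed level was 12150.0 to 12660.0 CPM with DMSO, 8662 to 9555 CPM with niraparib and 9429 to 9839 CPM with olaparib in WT, with 7 of 7 passing as lower with each drug. In PARP1 KO it was 13470.0 to 14200.0 CPM with DMSO, 12420.0 to 12820.0 CPM with niraparib and 11400.0 to 12490.0 CPM with olaparib, with 0 of 7 lower with niraparib (3 at an unadjusted P below 0.05, edgeR) and 4 of 7 with olaparib. The part of this marker shift in the results was not tested. Among 8 markers of other cell types, the basal marker KRT14 reached at most 0.150 CPM and the leukocyte marker PTPRC 0.1845 CPM in any library, and KRT5, PECAM1 and ALB had at most 10 counts over all libraries. The fibroblast collagen COL1A1 was at 88.3 to 153 CPM, whereas its partner COL1A2 was at 0.204 to 0.852 CPM and the mesenchymal filament VIM at 0.175 to 0.707 CPM. None of the tested markers of other cell types passed in any comparison (edgeR, with 1 at an unadjusted P below 0.05, in the niraparib interaction). The 3 libraries of each group carry a replicate number and no further record of separate cultures in the labels, so P values measure the spread between these libraries.

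Some libraries stood apart from the other two of their group. Over all genes, WT DMSO replicate 1 differed from both others with a chi-square per gene of at least 17.5, against 3.28 between those others. For WT niraparib replicate 2 the values were 12.2 and 3.41, and for PARP1 KO niraparib replicate 3 they were 11.7 and 3.13. Members moved with these libraries. FANCA was at 38.4, 30.3 and 30.1 CPM in the WT DMSO libraries, 29.5, 38.8 and 28.3 CPM in the WT niraparib libraries and 28.03, 28.7 and 38.1 CPM in the PARP1 KO niraparib libraries, so that the library that stood apart was the highest of each group. The same held for EME1 and MUS81 in these 3 groups. All comparisons that used these libraries were therefore repeated without the 3 of them, a choice made after seeing the data. Members whose result changed are named with each comparison. The PARP1 KO olaparib libraries all differed widely, with a chi-square per gene of 10.4, 18.3 and 8.21 for the 3 pairs, so no single library stood apart. In PARP1 KO DMSO, replicates 1 and 3 differed with a value of 10.5, against 3.15 and 5.74 for the other pairs. Olaparib against DMSO in PARP1 KO was not repeated in this way.

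All 45 genes were counted in every library and passed the filter on low counts in every fit, with the lowest single count at 92 reads, for RAD54B. Levels between genes can be compared only per exon length. In WT cells with DMSO they ran from 0.437 CPM per kilobase for RAD50 to 49.5 CPM per kilobase for UBE2T, the ubiquitin-conjugating enzyme of the Fanconi pathway. RAD50 and RAD54B are understated on this scale, because 76.9% and 73.8% of their exon bases overlap exons of a second gene transcribed in the same direction, where the counting discarded reads. MCM8 shared 33.3% of its exon bases in this way, RAD51D 8.9%, RAD52 5.6%, RBBP8 1.8% and BRCA1 1.3%, and the other 38 genes none.

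In WT cells, niraparib raised 22 of the 45 genes and lowered 5 (adjusted P below 0.05, edgeR quasi-likelihood test, Benjamini-Hochberg adjustment over 22446 genes). Over all genes tested, 19.9% were higher and 18.1% lower by the same test. The median log2 fold change of the 45 genes was 0.181, against -0.025 over all genes. A change of more than 1.5-fold with the same adjusted P, here termed called, was found for 6 members, BRCA2, EXO1, XRCC3, BRIP1, RAD50 and BRCA1, all of them higher, where 8.1% of all genes were called higher. The 5 lowered genes, FANCE, FANCF, SLX4, WRN and MRE11, changed by less than 1.5-fold, with log2 fold changes between -0.39 and -0.14. Without the libraries that stood apart, 21 members were higher and 9 lower, against 21.8% and 20.2% of all genes, and 6 were called. RAD54L, FANCM, FANCD2 and EME1 were then also lower and FANCB higher, and FANCC and MCM8 were lost. Of the 27 members past the test, 22 passed in every fit with a single library removed, and the other 5, MRE11, RAD52, RECQL4, FIGNL1 and MCM8, did not. In bulk RNA, fewer cells of one kind, such as cells in a given phase of the cycle, and less RNA per cell cannot be told apart.

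Cell cycle genes moved in the same libraries. Of 25 S phase genes that are not members, 20 rose with niraparib in WT, with a median log2 fold change of 0.477. Of 22 G2/M genes, 22 fell, with a median of -1.155. The summed S phase level was 1891 to 2122 CPM with DMSO and 2734 to 2854 CPM with niraparib, and the summed G2/M level was 5923 to 6441 CPM with DMSO and 2611 to 2775 CPM with niraparib. The part of these shifts in the changes of the 45 genes was not tested. The plot of summed levels sets the 45 members beside both lists. Their summed level was 1867 to 1879 CPM in WT with DMSO, 2107 to 2209 CPM with niraparib and 2033 to 2078 CPM with olaparib.

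**Figure D1:**
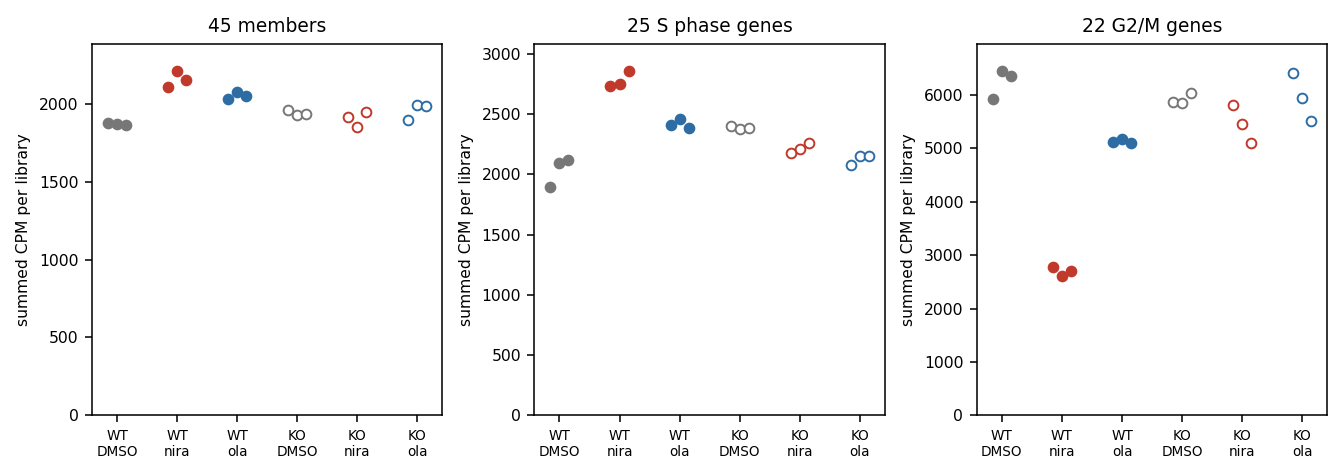
Summed CPM per library (vertical axes, from 0) of the 45 members, 25 S phase genes and 22 G2/M genes in the 6 groups, 1 point per library, filled for WT and open for PARP1 KO (nira, niraparib; ola, olaparib). With niraparib the WT libraries stood highest for the members and the S phase genes and lowest for the G2/M genes. In PARP1 KO the G2/M sums were 5846 to 6044 CPM with DMSO and 5107 to 5818 CPM with niraparib.

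**Figure D2:**
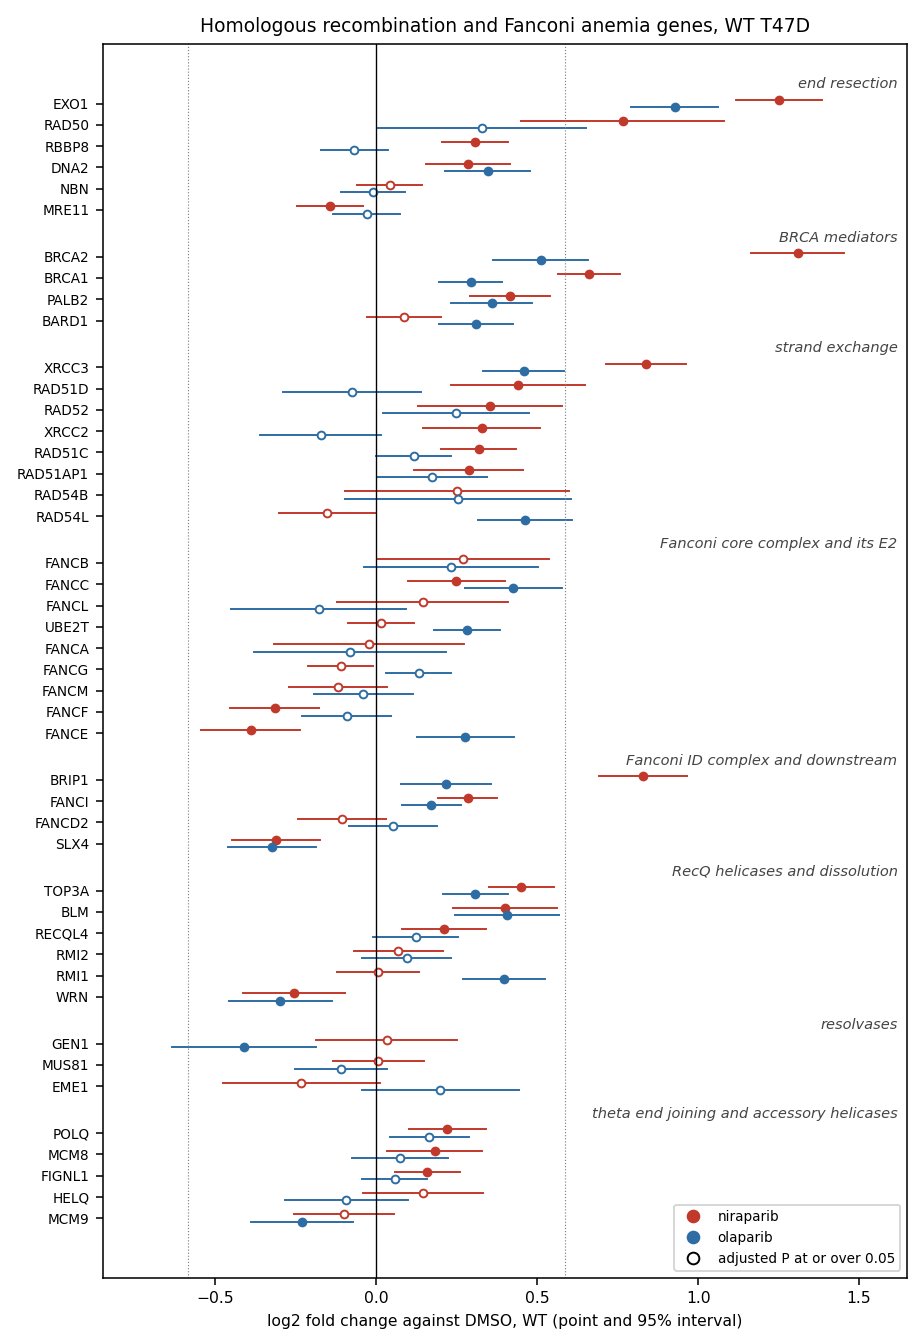
Log2 fold change against DMSO in WT (horizontal axis, point and 95% interval from edgeR) for each of the 45 members, by role and then by size of the niraparib change; red is niraparib, blue olaparib, open points have an adjusted P of 0.05 or more, and dotted lines mark 1.5-fold. Only 6 niraparib points and 1 olaparib point that passed the test lie beyond a dotted line, and FANCE has its 2 drugs on opposite sides of 0.

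The promoters of the leading genes are shown because the largest niraparib changes in WT in each direction lie in these members. RefSeq start windows of GRCh38.p14, from 250 bases before to 50 bases after each start, were found for 38 of the 45 members (49 windows). They were searched on both strands for the E2F words TTTCGCGC, TTTGGCGC, TTTCCCGC and TTTGCCGC, the cell cycle homology region word TTTGAA and the CCAAT box CCAAT. None of these words contains another, though matches may overlap. An E2F word was present in 16.3% of the member windows and in 3.31% of all 35116 windows searched. The TTTGAA word was in 12.2% and 15.2%, and CCAAT in 40.8% and 34.6%. These are matches of letters only. Besides EXO1, the members with an E2F word were GEN1, FANCD2, XRCC2, RMI1, FANCC, FANCA and MCM8. XRCC2, FANCC and MCM8 among them rose with niraparib in WT, and none of them was called. Capitals below mark the matched words, on either strand, and each stretch is written 5′ to 3′ on the strand of the gene. The 120 bases before the start are given for BRCA2 (chr13:32315388-32315507, plus strand, none of the words), XRCC3 (chr14:103715452-103715571, minus strand, 3 CCAAT boxes), BRIP1 (chr17:61863529-61863648, minus strand, 3 CCAAT boxes) and, as the gene that fell most with niraparib, FANCE (chr6:35452218-35452337, plus strand, none). For EXO1, 30 bases across the start (chr1:241848194-241848223, plus strand) hold its E2F word.
BRCA2: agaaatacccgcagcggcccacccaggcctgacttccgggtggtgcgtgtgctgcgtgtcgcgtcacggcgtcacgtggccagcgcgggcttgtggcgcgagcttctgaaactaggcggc
XRCC3: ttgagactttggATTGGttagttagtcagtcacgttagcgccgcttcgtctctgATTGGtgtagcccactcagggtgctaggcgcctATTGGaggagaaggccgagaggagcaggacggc
BRIP1: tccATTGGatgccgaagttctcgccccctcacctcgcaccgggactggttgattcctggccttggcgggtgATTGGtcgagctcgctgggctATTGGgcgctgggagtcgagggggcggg
EXO1: ttgaaaggtcagccTTTCGCGCgctgtgta
FANCE: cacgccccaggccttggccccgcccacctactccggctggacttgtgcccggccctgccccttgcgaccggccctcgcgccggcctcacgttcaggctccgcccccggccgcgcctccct

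The BRCA mediators included the largest niraparib change of the 45 genes over all libraries, that of BRCA2, closely followed by EXO1. With single libraries removed, the BRCA2 change ran from 1.211 (without WT niraparib replicate 2) to 1.365 and that of EXO1 from 1.186 to 1.328. These ranges overlap, so the order of these genes is not firm. BRCA2, which delivers the recombinase to resected DNA (chromosome 13 from 32315474 to 32400266 of GRCh38, plus strand), was at 22.5, 21.5 and 22.1 CPM with DMSO in WT and at 51.7, 61.3 and 50.6 CPM with niraparib. With olaparib it was at 30.2, 31.1 and 32.6 CPM, so that the 3 groups did not overlap and olaparib lay between DMSO and niraparib. The niraparib change was 1.31 on the log2 scale (standard error 0.069, adjusted P = 2.4e-12, edgeR) and the olaparib change 0.51 on the log2 scale (standard error 0.071, adjusted P = 2.2e-05, edgeR). Tested directly between the drugs, BRCA2 was higher with niraparib by 0.80 (adjusted P = 9e-09, edgeR).

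BRCA1, which starts recombination at the resected end (chromosome 17 from 43044295 to 43170245 of GRCh38, minus strand), had the same order of groups at a smaller scale. It was at 78.99, 82.1 and 83.7 CPM with DMSO, 97.9, 102 and 99.2 CPM with olaparib and 132, 127 and 129 CPM with niraparib. Its niraparib change was 0.66 on the log2 scale (standard error 0.047, adjusted P = 2.2e-10, edgeR), its olaparib change 0.29 (adjusted P = 0.00011), and the drugs differed by 0.37 (adjusted P = 1.9e-06). PALB2, the bridge between BRCA1 and BRCA2, rose with both drugs, by 0.42 and 0.36 (adjusted P = 8e-06 and 0.00021), with no detectable difference between them (95% interval of the difference from -0.07 to 0.18).

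BARD1, the obligate partner of BRCA1 in its ubiquitin ligase, had another order of groups. It was at 39.1, 37.7 and 38.9 CPM with DMSO, 41.6, 39.1 and 42.2 CPM with niraparib and 46.2, 49.2 and 47.8 CPM with olaparib. The lowest niraparib library was barely above the highest DMSO library, at 39.13 and 39.11 CPM, and the niraparib change was 0.09 (adjusted P = 0.25, edgeR). All olaparib libraries lay above both groups, at a change of 0.31 (adjusted P = 0.00033). BARD1 differed between niraparib and olaparib by -0.22 on the log2 scale (adjusted P = 0.0027, edgeR).

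Among the end resection genes, EXO1 changed most with both drugs. EXO1, the long-range 5′ to 3′ exonuclease (chromosome 1 from 241847967 to 241895148 of GRCh38, plus strand), was at 25.4, 27.9 and 31.2 CPM with DMSO in WT, 66.6, 64.4 and 70.6 CPM with niraparib and 53.4, 54.6 and 52.5 CPM with olaparib. It was the only member called with olaparib, by 0.93 on the log2 scale (standard error 0.065, adjusted P = 2.7e-09, edgeR), and it rose by 1.25 with niraparib (standard error 0.064, adjusted P = 1.5e-12). DNA2, the other long-range nuclease, rose with both drugs, by 0.28 and 0.35 (adjusted P = 0.00092 and 0.00045). RBBP8, which encodes the resection starter CtIP, rose with niraparib by 0.31 (adjusted P = 2.6e-05) and had a change of -0.07 (adjusted P = 0.39) with olaparib.

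The MRN complex, which holds and first cuts the broken end, did not move as 1 unit. RAD50 was at 4.801, 3.99 and 5.06 CPM with DMSO, 7.94, 7.404 and 8.14 CPM with niraparib and 5.65, 4.36 and 7.33 CPM with olaparib. Niraparib raised it by 0.77 on the log2 scale (standard error 0.15, adjusted P = 0.00031, edgeR), on the small part of its exons that is not shared, which makes the value uncertain. NBN was at 101, 105 and 107 CPM with DMSO and 109, 102 and 112 CPM with niraparib, a change of 0.04 (adjusted P = 0.56). MRE11 fell, by -0.14 (adjusted P = 0.026), from 88.3 ± 3.395 to 80 ± 3.12 CPM (SD, n = 3 each). It no longer passed in 4 of 6 single-library removals, those of WT niraparib replicates 1 and 2 and WT DMSO replicates 2 and 3 (adjusted P from 0.0094 to 0.14 across settings, edgeR).

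Of the 8 strand exchange genes, 6 rose with niraparib in WT, where 19.9% of all genes did, and RAD52 was the only one of the 6 that was lost in a fit with a single library removed. XRCC3, a paralog of the recombinase that acts with RAD51C (chromosome 14 from 103697609 to 103715504 of GRCh38, minus strand), was at 21.01, 20.01 and 21.8 CPM with DMSO, 29.3, 28.6 and 28.1 CPM with olaparib and 36.9, 37.4 and 37.9 CPM with niraparib. The 3 groups were well separated, with changes of 0.84 on the log2 scale (standard error 0.060, adjusted P = 2.6e-10, edgeR) for niraparib and 0.46 (adjusted P = 1.3e-05) for olaparib. The paralogs RAD51C, RAD51D and XRCC2 rose with niraparib, by 0.32, 0.44 and 0.33 (adjusted P = 7.9e-05, 0.0012 and 0.0048). With olaparib their changes were 0.12, -0.07 and -0.17, none past the test (adjusted P = 0.17, 0.68 and 0.21), and each of the 3 was higher with niraparib than with olaparib (adjusted P = 0.0071, 0.00038 and 0.00013, edgeR).

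RAD51D, for example, was at 12.9, 13.9 and 13.4 CPM with DMSO, 15.9, 20.1 and 18.6 CPM with niraparib and 11.6, 14.9 and 11.6 CPM with olaparib. Its olaparib libraries straddled the DMSO libraries. RAD51AP1, which aids strand invasion, rose by 0.29 (adjusted P = 0.0074) with niraparib, and RAD54B had a change of 0.25 (adjusted P = 0.26) on few counts.

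RAD54L, the motor protein that drives strand invasion (chromosome 1 from 46247688 to 46278473 of GRCh38, plus strand), ran against its group. It was at 31.1, 28.3 and 29.4 CPM with DMSO, 27.2, 28.9 and 23.6 CPM with niraparib and 39.1, 41.7 and 41.2 CPM with olaparib. Olaparib raised it by 0.46 on the log2 scale (standard error 0.070, adjusted P = 6.3e-05, edgeR), whereas the niraparib change was -0.15 (adjusted P = 0.099), or -0.19 (adjusted P = 0.023) without the libraries that stood apart. The direct difference between the drugs was -0.61 (adjusted P = 5.3e-07, edgeR).

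RAD52, which anneals single strands, was at 16.5, 12.2 and 11.7 CPM with DMSO and 16.1, 18.5 and 16.5 CPM with niraparib in WT. The groups overlapped, with DMSO replicate 1 inside the range of the niraparib libraries, and the change of 0.35 (adjusted P = 0.012) no longer passed without WT niraparib replicate 2, WT DMSO replicate 2 or WT DMSO replicate 3 (adjusted P = 0.059, 0.070 and 0.079), within a range from 2.4e-05 to 0.079 across the alternative settings.

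Of the 9 genes of the Fanconi core complex, the ubiquitin ligase of the pathway, and its conjugating enzyme, FANCE, FANCF, FANCG and UBE2T were lower with niraparib than with olaparib in WT, where 16.2% of all genes were, and none was higher, against 16.1% of all genes. Without the libraries that stood apart, FANCL was higher with niraparib (0.38, adjusted P = 0.00155) and FANCC lower. FANCF was lost without WT olaparib replicate 3 or WT niraparib replicate 2 (adjusted P = 0.072 and 0.078, from 0.0070 across settings). FANCE, the subunit that binds FANCD2 (chromosome 6 from 35452356 to 35467103 of GRCh38, plus strand), was at 19.3, 20.6 and 20.3 CPM with DMSO, 16.2, 14.1 and 15.7 CPM with niraparib and 24.96, 23.9 and 23.97 CPM with olaparib. All niraparib libraries lay below and all olaparib libraries above the DMSO libraries, with changes of -0.39 on the log2 scale (standard error 0.074, adjusted P = 0.00018, edgeR) and 0.28 (adjusted P = 0.0094, with 0.055 once WT olaparib replicate 1 was removed and 0.0032 at the lowest among the other settings). The drugs differed by -0.67 (adjusted P = 3.1e-07, edgeR), the largest downward difference between them among the 45 members. FANCF, an adaptor of the same complex, fell with niraparib by -0.32 (adjusted P = 0.00055) and had an olaparib change of -0.09 (adjusted P = 0.39).

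UBE2T was at 76.99, 85.8 and 82.3 CPM with DMSO, 83.96, 81.7 and 82.2 CPM with niraparib and 98.8, 99.3 and 99.5 CPM with olaparib. It rose with olaparib by 0.28 (adjusted P = 0.00031), at a niraparib change of 0.01 (adjusted P = 0.86), and the drugs differed by -0.27 (adjusted P = 0.00019, edgeR). FANCC rose with both drugs, by 0.25 and 0.42 (adjusted P = 0.0085 and 0.00022), the first being 0.18 (adjusted P = 0.067) without the libraries that stood apart. FANCA, FANCB, FANCG, FANCL and FANCM passed with neither drug, at niraparib changes between -0.12 and 0.27, although FANCG was lower with niraparib than with olaparib (difference -0.24, adjusted P = 0.00043).

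The group formed by the FANCD2-FANCI clamp and the proteins acting after it was led by BRIP1 (FANCJ), the helicase that binds BRCA1 (chromosome 17 from 61681266 to 61863521 of GRCh38, minus strand). BRIP1 was at 20.8, 21.1 and 21.7 CPM with DMSO, 25.3, 26.1 and 22.3 CPM with olaparib and 36.3, 39 and 37.7 CPM with niraparib. The niraparib change was 0.83 on the log2 scale (standard error 0.066, adjusted P = 1.5e-09, edgeR). With olaparib it was 0.22 (adjusted P = 0.027), a result lost in 5 of 6 single-library removals, WT olaparib replicate 3 being the exception (adjusted P between 0.011 and 0.14 across settings, highest without WT olaparib replicate 2), and the drugs differed by 0.61 (adjusted P = 2.3e-07, edgeR).

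In the clamp itself, FANCD2 was at 93.3, 91.6 and 91.9 CPM with DMSO, 78.8, 97.6 and 80.4 CPM with niraparib and 90.6, 97.4 and 98.1 CPM with olaparib. Niraparib replicate 2 lay above and the other two niraparib libraries below all DMSO libraries, a change of -0.11 (adjusted P = 0.22). Without the libraries that stood apart, of which niraparib replicate 2 is 1, FANCD2 was lower with niraparib by -0.20 (adjusted P = 0.00020) and its niraparib interaction was 0.23 (adjusted P = 0.030). FANCI rose with both drugs by 0.28 and 0.17 (adjusted P = 1.8e-05 and 0.0082). SLX4, the scaffold of the cross-link nucleases, fell with both drugs, by -0.31 and -0.33 (adjusted P = 0.00054 and 0.0012).

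Among the helicases and the complex that dissolves double Holliday junctions, TOP3A, the topoisomerase of that complex, was at 93.96, 89.95 and 87.2 CPM with DMSO, 122, 126 and 123 CPM with niraparib and 113, 106 and 115 CPM with olaparib. It rose with both drugs, by 0.45 on the log2 scale (standard error 0.048, adjusted P = 1.2e-07, edgeR) and by 0.31 (adjusted P = 9.6e-05). BLM, its helicase partner, rose by 0.40 with niraparib and 0.41 with olaparib (adjusted P = 0.00023 and 0.00069). The accessory subunit RMI1 behaved differently. RMI1 was at 22.8, 23.2 and 22.4 CPM with DMSO, 22.4, 22.97 and 23.3 CPM with niraparib and 30.04, 30.4 and 29.4 CPM with olaparib. Its changes were 0.01 (adjusted P = 0.95) and 0.40 (adjusted P = 7.3e-05), and the direct difference was -0.39 (adjusted P = 2.7e-05, edgeR). The Werner syndrome helicase WRN fell with both drugs, by -0.26 and -0.30 (adjusted P = 0.010 and 0.0084), RECQL4 rose with niraparib by 0.21 (adjusted P = 0.011; lost without WT niraparib replicate 2, at a change of 0.13 and an adjusted P of 0.087, without WT DMSO replicate 2, at 0.17 and 0.070, and in a joint fit of all 18 libraries, at an adjusted P of 0.17, with 0.00079 the lowest across settings), and RMI2 had changes of 0.07 and 0.09 that passed with neither drug.

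Of the 3 resolvases, nucleases that cut joined DNA molecules, 0 passed the test with niraparib in WT over all libraries (0 at an unadjusted P below 0.05, edgeR), where 19.9% of all genes were higher and 18.1% lower, a count too small to read against those shares. MUS81 was at 57.5, 53.2 and 47.5 CPM with DMSO and 49.5, 57.9 and 51.2 CPM with niraparib, a change of 0.01 (adjusted P = 0.96). Its partner EME1 was at 58.8, 45.7 and 49.4 CPM with DMSO, 41.1, 50.5 and 38.4 CPM with niraparib and 59.9, 58.1 and 57.6 CPM with olaparib. The niraparib and DMSO libraries of EME1 overlapped, at a change of -0.23 (adjusted P = 0.13). EME1 was, without the libraries that stood apart, lower with niraparib by -0.26 (adjusted P = 0.00017) and higher with olaparib by 0.31 (adjusted P = 2.0e-06). With all libraries, niraparib and olaparib differed by -0.43 (adjusted P = 0.011). GEN1 fell with olaparib by -0.41 (adjusted P = 0.012), or by -0.27 (adjusted P = 0.0010) without WT DMSO replicate 1 and WT niraparib replicate 2, was lost without WT olaparib replicate 1 or WT olaparib replicate 3 (adjusted P = 0.053 and 0.056, from 1.3e-06 across settings), and had a niraparib change of 0.03 (adjusted P = 0.85).

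In the last group, POLQ, which encodes polymerase theta, was at 34.7, 33.9 and 33.1 CPM with DMSO, 38.9, 41.1 and 38.7 CPM with niraparib and 36.1, 40.1 and 37.6 CPM with olaparib. Every drug-treated library lay above every DMSO library, at a niraparib change of 0.22 (adjusted P = 0.0041) and an olaparib change of 0.17 (adjusted P = 0.053), or 0.18 (adjusted P = 0.0099) without the libraries that stood apart. The AAA ATPase gene FIGNL1 and the helicase gene MCM8 rose with niraparib, by 0.16 and 0.18 (adjusted P = 0.013 and 0.049), and MCM8 had 0.15 (adjusted P = 0.11) without the libraries that stood apart. MCM8 was lost in 6 of 6 single-library removals (adjusted P from 0.047 to 0.19 across settings), and FIGNL1 in 1, without WT DMSO replicate 3 (adjusted P = 0.054, from 0.0065 across settings). HELQ had a niraparib change of 0.15 (adjusted P = 0.23). MCM9, the partner of MCM8, was at 21.04, 22 and 21.8 CPM with DMSO, 18.7, 21.4 and 20.4 CPM with niraparib and 17.3, 20.1 and 17.7 CPM with olaparib. It fell with olaparib by -0.23 (adjusted P = 0.035), a result lost in 4 of 6 single-library removals, those of WT olaparib replicates 1 and 3 and WT DMSO replicates 2 and 3 (adjusted P between 0.0058 and 0.16 across settings), and had a niraparib change of -0.10 (adjusted P = 0.33).

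With olaparib in WT, 16 of the 45 genes rose and 4 fell, against 11.2% and 7.77% of all genes tested, and 1 gene, EXO1, was called higher, against 2.06% of all genes. The median log2 fold change was 0.165, close in size to that with niraparib, beside -0.017 over all genes. The 4 lowered genes were GEN1, SLX4, WRN and MCM9. Without the libraries that stood apart, 22 rose and 6 fell, against 15.3% and 12.6% of all genes, with RAD52, FANCB, FANCG, RECQL4, EME1 and POLQ added to the higher and RBBP8 and FANCL to the lower. Both drugs were compared with the same 3 DMSO libraries, so their changes are given side by side and no agreement between them is read. Of the S phase genes, 15 of 25 rose with olaparib (median 0.222), and 16 of 22 G2/M genes fell (median -0.322). The part of these in the members' changes was not tested.

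Tested directly in WT, niraparib and olaparib differed for 21 of the 45 genes. With niraparib 13 were higher and 8 lower, against 16.1% and 16.2% of all genes. Of these, 4 differed by more than 1.5-fold: BRCA2 (0.80) and BRIP1 (0.61) were higher under niraparib on the log2 scale, and FANCE and RAD54L were lower, by -0.67 and -0.61, where 5.62% of all genes were called higher and 3.33% lower. With single libraries removed, 3 to 5 members were called: BRIP1 was under 1.5-fold without WT olaparib replicate 3 (0.55) and RAD54L without WT niraparib replicate 3 (-0.53), both still past the test. The other genes higher with niraparib were RAD51D, XRCC2, GEN1, RAD50, XRCC3, RBBP8, BRCA1, EXO1, HELQ, RAD51C and TOP3A, with differences between 0.14 and 0.52. RAD50 among them no longer passed in 4 of 6 single-library removals (adjusted P from 0.0033 to 0.20 across settings, highest without WT olaparib replicate 2), those of WT olaparib replicates 1 and 2 and WT niraparib replicates 1 and 3. Its difference of 0.44 was 0.27 without WT olaparib replicate 2 and 0.64 without WT olaparib replicate 3. TOP3A was lost without WT olaparib replicate 2 or WT niraparib replicate 1 (adjusted P = 0.15 and 0.051, from 0.0049 across settings), and HELQ in 6 of 6 removals (adjusted P from 0.029 to 0.17 across settings). FANCL and FANCI were also higher, and FANCC and FANCD2 also lower, without the libraries that stood apart. The other genes lower with niraparib over all libraries were EME1, RMI1, UBE2T, FANCG, FANCF and BARD1, with differences between -0.43 and -0.22. In the same test 22 of 22 G2/M genes were lower with niraparib (median -0.934), 17 of 25 S phase genes were higher and 4 lower (median 0.263), and 2 of 7 luminal markers were lower (median -0.105). Their part in the members' differences was not tested.

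**Figure D3:**
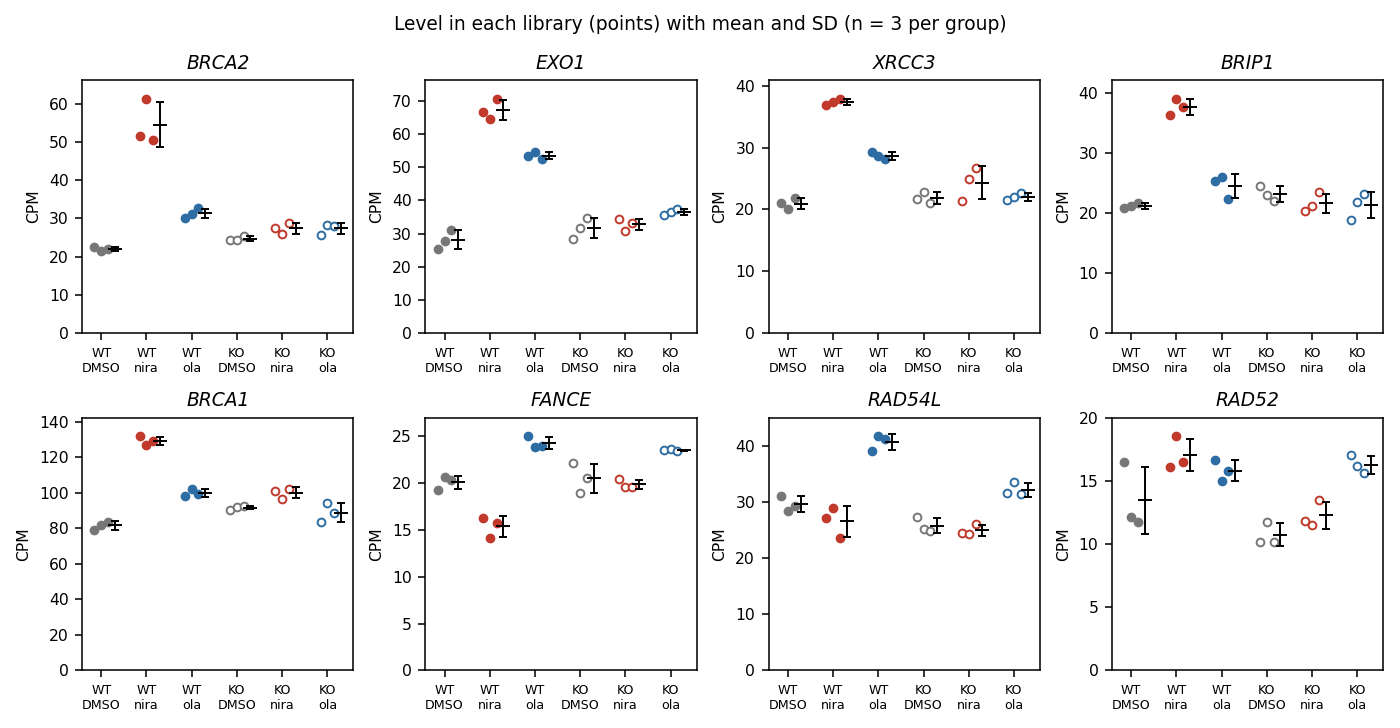
CPM in each library (vertical axis, from 0) for 8 members in the 6 groups, filled points for WT and open points for PARP1 KO, with the mean and SD of 3 libraries beside them (nira, niraparib; ola, olaparib). BRCA2, EXO1, XRCC3, BRIP1 and BRCA1 are highest in WT with niraparib, FANCE is lowest there, RAD54L is highest in WT with olaparib, and in PARP1 KO none of the first 5 reaches its WT niraparib level.

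In PARP1 KO cells, niraparib changed none of the 45 genes by the edgeR test (9 had an unadjusted P below 0.05, and DESeq2 passed 1, RBBP8). Over all 22037 genes tested in PARP1 KO, 0.059% were higher and 0.0499% lower. The median log2 fold change of the members was -0.014 (-0.046 without PARP1 KO niraparib replicate 3), and all lay between -0.21 for BARD1 and 0.26 for RAD54B. BRCA2 was at 24.3, 24.4 and 25.5 CPM with DMSO and 27.5, 25.99 and 28.9 CPM with niraparib, a change of 0.16 (adjusted P = 0.50). EXO1 was at 28.5, 31.7 and 34.6 and 34.3, 30.8 and 33.1 CPM, with overlapping groups and a change of 0.06 (adjusted P = 0.87). For BRCA1 the levels were 90.4, 92.2 and 92.3 CPM with DMSO and 101, 96.4 and 102 CPM with niraparib, all niraparib libraries above all DMSO libraries, at 0.13 (adjusted P = 0.46).

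In PARP1 KO, XRCC3 was at 21.7, 22.9 and 21.04 CPM with DMSO and 21.4, 24.9 and 26.7 CPM with niraparib. BRIP1 was at 24.5, 23.01 and 21.97 CPM and 20.3, 21.1 and 23.4 CPM, and FANCE at 22.1, 18.97 and 20.5 CPM and 20.4, 19.6 and 19.5 CPM. In each of these 3 genes the groups overlapped. S phase and G2/M genes had medians of -0.106 and -0.116, with 1 of 25 and 0 of 22 past the test (7 G2/M genes at an unadjusted P below 0.05, edgeR).

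Olaparib changed 6 of the 45 genes in PARP1 KO, 3 upward and 3 downward, against 4.42% and 3.87% of all genes. With a single library removed, 2 (without PARP1 KO DMSO replicate 2) to 5 passed, and 2 of the 6, RAD52 and RAD54L, passed in every such fit. RAD52 was the only member called, where 0.467% of all genes were called higher. It was at 10.2, 11.8 and 10.2 CPM with DMSO, 17.1, 16.2 and 15.6 CPM with olaparib and 11.8, 11.5 and 13.5 CPM with niraparib, and all olaparib libraries lay above the others. The olaparib change was 0.60 on the log2 scale (standard error 0.094, adjusted P = 0.00043, edgeR), and it fell below 1.5-fold without PARP1 KO olaparib replicate 1, PARP1 KO DMSO replicate 1 or PARP1 KO DMSO replicate 3, at 0.565 in the lowest of these fits. The difference in this change between genotypes did not pass the test. In WT, RAD52 also rose with olaparib once the libraries that stood apart were left out.

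RAD54L rose with olaparib in PARP1 KO as well, from 27.3, 25.2 and 24.9 CPM to 31.6, 33.6 and 31.4 CPM, by 0.32 (adjusted P = 0.0046), and was at 24.6, 24.2 and 26.01 CPM with niraparib. EME1 rose with olaparib from 45.2, 41.4 and 39.1 CPM to 50.8, 56.2 and 61.1 CPM, by 0.42 (adjusted P = 0.034), and RBBP8, RAD51D and FIGNL1 fell, by -0.23, -0.32 and -0.18 (adjusted P = 0.0063, 0.046 and 0.047). EME1 and RAD51D no longer passed in a joint fit of all 18 libraries. EME1 was also lost in 4 of 6 single-library removals, those of PARP1 KO olaparib replicates 2 and 3 and PARP1 KO DMSO replicates 2 and 3, at adjusted P from 1.2e-07 to 0.13 across settings. RAD51D was lost in 5 of 6, every one but PARP1 KO olaparib replicate 3, at adjusted P from 0.012 to 0.23 across settings, and its change was -0.20 without PARP1 KO olaparib replicate 1. FIGNL1 was lost in 6 of 6 (adjusted P from 0.021 to 0.15 across settings), and RBBP8 in 1, without PARP1 KO DMSO replicate 2 (adjusted P = 0.052, from 0.00062 across settings). In PARP1 KO, 10 of 25 S phase genes fell and 1 rose with olaparib, with a median of -0.143, 2 of 22 G2/M genes fell (median -0.071), and 4 of 7 luminal markers fell (median -0.179). The part of these in the members' changes was not tested.

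Between niraparib and olaparib in PARP1 KO, 5 genes were lower with niraparib and 1 was higher, against 5.73% and 4.27% of all genes. The lower genes were RAD52 (-0.40), RMI1 (-0.37), RAD54L (-0.36), BARD1 (-0.30) and FANCE (-0.24) on the log2 scale, and BRCA1 was the higher one (0.18, adjusted P = 0.039). RAD54L and RMI1 were thus lower with niraparib than with olaparib in both genotypes, each tested in its own libraries: RAD54L by -0.61 (adjusted P = 5.3e-07) in WT and -0.36 (adjusted P = 0.0014) in PARP1 KO, and RMI1 by -0.39 (adjusted P = 2.7e-05) and -0.37 (adjusted P = 0.0019). BARD1 and FANCE also passed in both genotypes. In PARP1 KO, FANCE was lost in 6 of 6 single-library removals (adjusted P from 0.022 to 0.13 across settings), and BRCA1 in 5 of 6, every one but PARP1 KO olaparib replicate 2 (from 0.019 to 0.16). Without PARP1 KO niraparib replicate 3, which stood apart, EME1 was also lower, by -0.34 (adjusted P = 0.012). RAD52 was lost without PARP1 KO niraparib replicate 2 (adjusted P = 0.055, from 0.0014 across settings). Of the S phase genes, 6 of 25 were higher and 4 lower with niraparib (median 0.068), 2 of 22 G2/M genes were lower (median -0.059), and 1 of 7 luminal markers was higher (median 0.082). The part of these in the members' differences was not tested.

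With DMSO, 2 of the 45 were higher in PARP1 KO than in WT, RMI2 by 0.28 on the log2 scale (standard error 0.062, adjusted P = 0.016, edgeR) and RBBP8 by 0.19 (adjusted P = 0.045), where 0.811% of all 24675 genes were higher. RMI2 was at 40.5, 47.1 and 47.2 CPM in WT and 53.2, 53.6 and 56.7 CPM in PARP1 KO, and RBBP8 at 116, 127 and 124 and 135, 141 and 142 CPM, with no overlap for either gene (both named after their values were seen). When 1 DMSO library was left out, from 0 to 1 members passed (0 without PARP1 KO DMSO replicate 2, PARP1 KO DMSO replicate 3 or WT DMSO replicate 1), and none passed without the libraries that stood apart, where 0.425% of all genes were higher, at 0.21 (adjusted P = 0.082) for RMI2 and 0.15 (adjusted P = 0.15) for RBBP8. Over all members the median was 0.071, and 31 of 45 were above 0; the S phase genes had a median of 0.235, with 13 of 25 past the test, the G2/M genes a median of -0.08, with 0 of 22 past it (4 at an unadjusted P below 0.05, edgeR), and 1 of 7 luminal markers was higher (median 0.115). BRCA1, BRCA2 and EXO1 had differences of 0.17, 0.17 and 0.16, none past the test (adjusted P = 0.087, 0.27 and 0.28).

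Whether the drug response itself differed between genotypes was tested as an interaction, the log2 fold change in PARP1 KO minus that in WT, over all 18 libraries. For niraparib, 18 of the 45 genes passed, 15 with a lower and 3 with a higher change in PARP1 KO, against 12.5% and 10.4% of all genes. EXO1, BRCA2, BRIP1, XRCC3, RAD50 and RAD51D were called lower, where 5.2% of all genes were. Their interactions were -1.20 for EXO1 (adjusted P = 8.6e-12), -1.16 for BRCA2 (adjusted P = 2.1e-11), -0.93 for BRIP1 (adjusted P = 2.1e-08), -0.68 for XRCC3 (adjusted P = 1.6e-06), -0.68 for RAD50 and -0.60 for RAD51D (adjusted P = 0.0086 and 0.0019, edgeR). RAD50 was under 1.5-fold without WT DMSO replicate 2 (-0.57), and RAD51D without PARP1 KO DMSO replicate 2, WT niraparib replicate 2 or WT DMSO replicate 1 (-0.55, -0.53 and -0.58). BRCA1 had -0.54 (adjusted P = 2.2e-07), just under 1.5-fold. The 3 genes with a higher change in PARP1 KO, FANCE, SLX4 and FANCF, were among the 5 that niraparib lowered in WT, at 0.34, 0.32 and 0.28. Because the interaction subtracts that WT change, this overlap is no separate result. Of the 18, 12 passed in every fit with a single library removed, and FANCE, SLX4, FANCF, BARD1, FANCC and MCM8 did not. SLX4 and MCM8 were each lost in 6 of 12 such fits (adjusted P from 0.0031 to 0.17 and from 0.011 to 0.11 across settings), FANCF in 5 (0.0079 to 0.11), FANCE in 2 (0.0039 to 0.056), BARD1 in 1 (0.0027 to 0.059) and FANCC in 1 (0.0501 without PARP1 KO niraparib replicate 3).

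The same interaction was negative for all 25 S phase genes (median -0.59, 20 past the test) and positive for all 22 G2/M genes (median 0.983, 22 past the test). The members' median was -0.191. Of the 7 luminal markers, 5 passed with a higher change in PARP1 KO (median 0.404). The part of these shifts in the members' interaction was not tested. Without the libraries that stood apart, 16 members had a lower and 4 a higher change in PARP1 KO, against 11.7% and 10.1% of all genes, at a median of -0.233, with FANCB, FIGNL1, FANCD2 and EME1 added and FANCC and SLX4 lost, and RAD51D was at -0.51, under 1.5-fold. RAD52, POLQ, MUS81, RAD54L and FANCD2 had interactions of -0.15, -0.04, 0.09, 0.10 and 0.16, none past the test, and UBE2T, RMI1, NBN, EME1 and MCM9 had -0.17, -0.18, -0.14, 0.44 and 0.01, likewise.

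**Figure D4:**
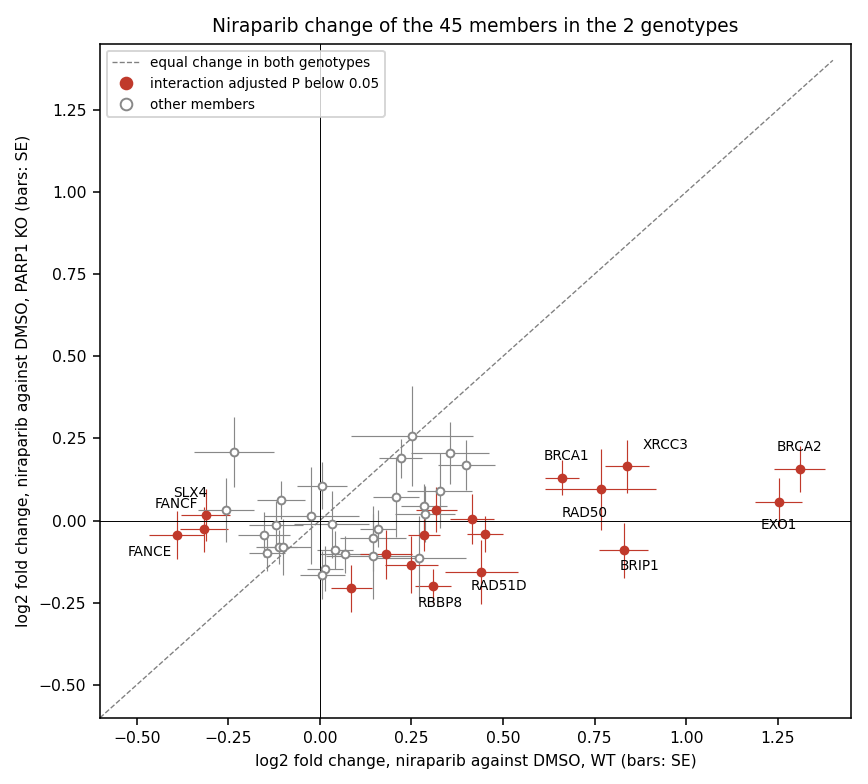
Niraparib log2 fold change against DMSO in WT (horizontal axis) and in PARP1 KO (vertical axis) for the 45 members, bars showing the standard error; filled red points passed the interaction test and the dashed line marks equal change. The WT changes run from -0.39 to 1.31, whereas the PARP1 KO changes stay between -0.21 and 0.26, so that BRCA2, EXO1, XRCC3, BRIP1, BRCA1 and RAD50 lie far below the line.

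For olaparib, 4 of the 45 genes passed the interaction, all with a lower change in PARP1 KO, against 1.35% of all genes. EXO1 was called lower, at -0.72 (adjusted P = 1.9e-05), where 0.381% of all genes were. XRCC3 had -0.44 (adjusted P = 0.010) and BRCA1 -0.34 (adjusted P = 0.0053). BRCA2 had -0.36 (adjusted P = 0.043), a result lost under a stricter count filter (filterByExpr, adjusted P = 0.052) and in 12 of 12 single-library removals (from 0.013 to 0.11 across settings, highest without WT olaparib replicate 3). FANCI (-0.21) and SLX4 (0.30) passed as well once the libraries that stood apart were removed. The olaparib rise of EXO1 in WT thus had no counterpart past the test in PARP1 KO, where it was at 28.5, 31.7 and 34.6 CPM with DMSO and 35.6, 36.6 and 37.3 CPM with olaparib, a change of 0.21 (adjusted P = 0.083), although all olaparib libraries lay above all DMSO libraries. The RAD54L rise with olaparib did not differ detectably between genotypes, at -0.14 (adjusted P = 0.51) and a 95% interval from -0.34 to 0.06. All 25 S phase genes were negative in this interaction too (median -0.374, 20 past the test), 21 of 22 G2/M genes were positive (median 0.251, 9 past the test), and 3 of 7 luminal markers passed as higher (median 0.142). The part of these in the members' values was not tested.

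The other genes of these pathways were taken from a second list, of which 40 were matched by symbol and 39 tested in WT. With niraparib in WT, 12 rose and 8 fell, where 19.9% and 18.1% of all genes did, at a median of 0.057. With olaparib 12 rose and 1 fell, where 11.2% and 7.77% of all genes did, at a median of -0.011. Of the 39, 3 were called higher with niraparib, near the 8.1% of all genes, and 3 with olaparib, where 2.06% of all genes were. PSMC3IP, which encodes HOP2, an activator of strand exchange, rose most, by 1.46 with niraparib and 0.998 with olaparib (adjusted P = 1.4e-14 and 1.5e-10, edgeR), and its niraparib interaction was -1.33 (adjusted P = 3e-13). RADX, which restrains the recombinase at forks, rose by 1.03 and 0.93 (adjusted P = 0.0011 and 0.0077), and CENPS was the third gene called with niraparib, at 0.63 (adjusted P = 0.00069). MND1, the partner of PSMC3IP, was called with olaparib, at 0.62 (adjusted P = 2.2e-05), and had a niraparib change of 0.38 (adjusted P = 0.0012). These 4 genes were named after their values were seen. In PARP1 KO, niraparib changed 0 of the 38 tested (4 at an unadjusted P below 0.05, edgeR), where 0.059% of all genes were higher and 0.0499% lower. Olaparib changed 3 of them, 1 upward and 2 downward, where 4.42% and 3.87% of all genes were, so this count is near the share of all genes.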

How the data were processed

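RNA from 18 T47D libraries was sequenced, and the authors deposited raw read counts per gene: reads were trimmed with Trimmomatic, aligned to GRCh38 with STAR and counted with featureCounts 2.0.0 on Ensembl 96 genes, as reverse-stranded primary alignments, without reads on exons shared by several genes on a strand. No other column of values was used or left unused (0 unused). Totals were 28890837 to 52251288 counts per library, and 58472 of 58884 gene identifiers had a symbol. The labels and the published methods differ on RNA input and medium.

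Genes with more than 10 counts over a fit's libraries were tested with edgeR 4.0.16 (R 4.3.3; TMM scaling, robust quasi-likelihood test, Benjamini-Hochberg adjustment over all genes), in the 9 WT libraries, in the 9 PARP1 KO libraries, and in all 18 for genotype and interactions. Passed means an adjusted P below 0.05, and called means also more than 1.5-fold. CPM used TMM-scaled library sizes. Values per library were given for members called with either drug in either genotype or between genotypes, for the largest and smallest niraparib change in WT in each role group, for up to 6 members per interaction, and for BRCA1 and BRCA2; RMI2 and RBBP8 were added after their values were seen. The members, lists and rules were chosen with earlier results of these data known. The fits were tested on simulated counts. Alternatives were RLE scaling, other count filters, DESeq2 1.42.0, a replicate block, a joint fit, removal of each library and, added after seeing the data, removal of 3 libraries whose chi-square against both others of their group was over 3 times that between those others. The biological coefficient of variation was 7.04% in WT and 7.42% in PARP1 KO.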

Additional observations from a re-analysis of the deposited data

Results flagged for a closer look

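The response to a drug differed between genotypes, by a test of the difference itself (edgeR interaction over all 18 libraries, adjusted P below 0.05), in 22 values of 18 members. For niraparib 15 of 45 members were lower and 3 higher, against 12.5% and 10.4% of all genes, and for olaparib 4 were lower, against 1.35%. For niraparib, the change in PARP1 KO minus that in WT on the log2 scale was negative for EXO1 (-1.20), BRCA2 (-1.16), BRIP1 (-0.93), XRCC3 (-0.68), RAD50 (-0.68), RAD51D (-0.60), BRCA1 (-0.54), RBBP8 (-0.51), TOP3A (-0.50), PALB2 (-0.42), FANCC (-0.39), FANCI (-0.33), BARD1 (-0.30), RAD51C (-0.29) and MCM8 (-0.29). It was positive for FANCF (0.28), SLX4 (0.32) and FANCE (0.34). For olaparib it was negative for EXO1 (-0.72), XRCC3 (-0.44), BRCA2 (-0.36) and BRCA1 (-0.34). With single libraries removed, 6 of the 18 niraparib values no longer passed in at least 1 fit. BARD1 and FANCC were lost without PARP1 KO niraparib replicate 3 (adjusted P = 0.059 and 0.0501), and FANCE without WT niraparib replicate 2 or PARP1 KO DMSO replicate 2 (0.056 and 0.052). FANCF was lost without PARP1 KO niraparib replicates 1 or 2, PARP1 KO DMSO replicate 2, WT niraparib replicate 2 or WT DMSO replicate 2 (up to 0.11). SLX4 was lost without PARP1 KO niraparib replicate 3, PARP1 KO DMSO replicates 2 or 3, WT niraparib replicates 1 or 3 or WT DMSO replicate 1 (up to 0.17). MCM8 was lost without PARP1 KO niraparib replicates 1 or 2, PARP1 KO DMSO replicate 1, WT niraparib replicate 2 or WT DMSO replicates 2 or 3 (up to 0.11). With olaparib, BRCA2 was lost in all 12 such fits (up to 0.11, without WT olaparib replicate 3). Each genotype is 1 line, so the genotype cannot be told apart from other differences between the lines. Without the libraries that stood apart, those of FANCC and SLX4 with niraparib no longer passed, at -0.23 (adjusted P = 0.19) and 0.24 (adjusted P = 0.065). No column of the files was left unused.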

How the results depend on the processing

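The 61 single-gene values followed here are those past the test among the members chosen by rule for values per library, without RMI2 and RBBP8. None reversed direction under 859 alternative values, of which 796 stayed on their side of the threshold and 63 no longer passed. Other members past the test, among them MRE11, MCM8, HELQ and FIGNL1, are not in these numbers. Their losses in single-library removals are given with each comparison. Of the counts and medians over members, 350 alternative values lay within 1.5 times the reported count, or within 1 standard error of the reported median, and 28 did not. That standard error was computed from the spread of the members' median between the libraries of each group. With niraparib in PARP1 KO, 1 member passed with no filter on low counts and 1 with DESeq2, against 0. For PARP1 KO against WT with DMSO, 4 passed with DESeq2 and 1 with only the 6 DMSO libraries, against 2. For the olaparib interaction 7 passed with DESeq2, against 4. The causes were not tested.

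Leaving out WT DMSO replicate 1, WT niraparib replicate 2 and PARP1 KO niraparib replicate 3 together, an alternative chosen after seeing the data, gave 0 members passed for PARP1 KO against WT with DMSO and medians of -0.046 for niraparib in PARP1 KO and -0.233 for the niraparib interaction.

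Removing single libraries gave these ranges. In PARP1 KO with olaparib, from 2 (without PARP1 KO DMSO replicate 2) to 5 members passed and from 0 to 1 were called. For PARP1 KO against WT with DMSO, 0 to 1 passed, with medians of 0.053 to 0.085. Medians were 0.141 to 0.172 for olaparib in WT, 0.046 to 0.111 for niraparib against olaparib in WT, -0.046 to -0.005 for niraparib in PARP1 KO, -0.045 to 0.025 for niraparib against olaparib in PARP1 KO, and -0.231 to -0.179 for the niraparib interaction.

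Libraries sharing a replicate number shared only that number: 16 of 45 such pairs had correlated deviations above 0.1 (range -0.56 to 0.578), and 5 of 18 libraries correlated best with their own number. With a replicate block, 26 members passed for niraparib in WT, against 27, and 4 for niraparib against olaparib in PARP1 KO, against 6, where BRCA1 and FANCE were lost (adjusted P = 0.061 and 0.059, edgeR). Also lost were MCM8 for niraparib in WT (0.053), HELQ for niraparib against olaparib in WT (0.074), FIGNL1 for olaparib in PARP1 KO (0.077), SLX4 for the niraparib interaction (0.064) and BRCA2 for the olaparib interaction (0.0505). RAD54B had the lowest counts, with as few as 92 in a library. For this gene, 73.8% of the exon bases overlap a second gene, where reads were discarded.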
